A study of Mus musculus with 14 samples.

Results

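The S100 genes encode a family of small calcium-binding proteins, and 10 of them were chosen by gene symbol and followed over 12 mammary tumours of Brg1+/- mice. The platform annotation named 1 probe each for 9 of the 10, which were S100a1, S100a3, S100a4, S100a6, S100a8, S100a9, S100a10, S100a11 and S100a13, and no probe was named for S100a14. These 9 genes stand among 16877 genes tested. RNA of each tumour, labelled with Cy5, was hybridised against a common mouse reference RNA labelled with Cy3 on 14 two-colour arrays. The tumours were T135, T160, T172, T176, T2023, T2134, T221, T284, T372, T55, T646 and T920, and a further array marked biorep was run for both T172 and T284. All tumours carried the same heterozygous genotype of Brg1 (Smarca4), which encodes an ATPase subunit of SWI/SNF complexes that move nucleosomes. The sample titles also carry the word MIXED, which is not explained in the sources used here. No age, strain, treatment or control tissue is given in the sources used here, nor whether the tumours came from separate animals. The p-values therefore describe only these samples and no wider group of animals. Each value is the log2 ratio of tumour over reference, so that 0 means as much signal as in the reference and positive values mean more. Base 2 was inferred from the range of values.

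S100 proteins carry paired EF-hand loops and mostly form dimers. Calcium binding opens a surface that holds a target protein, and the proteins have no enzyme activity of their own. Several of them are known from epithelial and tumour biology. S100a8 and S100a9 form calprotectin, which neutrophils hold in large amounts and which keratinocytes make when activated. S100a4 is known from fibroblasts and motile cells, S100a6 from proliferating epithelium and S100a3 from the hair cuticle. In mouse and human most family members lie in 1 gene cluster, on both sides of genes of the cornified envelope.

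Krt18, a keratin of simple epithelium such as the mammary gland, lay above the reference in 11 tumours, at 1.14 to 2.97, whereas T176 stood at -4.25. T176 also had 644 genes called against the other 11 tumours. In bulk tissue, fewer cells of a type and less RNA per cell cannot be told apart.

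Upstream sequences of the members on which the results turn are shown as RefSeq gives them for build GRCm38.p6, with 250 bases before each annotated start. The promoter table held 11 windows for 8 of the 10 members. Capitals mark matches on either strand to a TATA box (TATAAA), an AP-1 element (TGANTCA), a C/EBP core (TTNNGNAA) or a GC box (GGGCGG). Of all 32851 windows of this length, 12.4% held the TATA box letters, 6.75% the AP-1 letters, 36.8% the C/EBP letters and 32.7% the GC box letters. S100a8 and S100a9 are shown as the members with the widest spread, S100a4 as the one highest in T176, and S100a11 as the one above the reference in every tumour.
S100a8, chr3:90668821-90669070, plus strand: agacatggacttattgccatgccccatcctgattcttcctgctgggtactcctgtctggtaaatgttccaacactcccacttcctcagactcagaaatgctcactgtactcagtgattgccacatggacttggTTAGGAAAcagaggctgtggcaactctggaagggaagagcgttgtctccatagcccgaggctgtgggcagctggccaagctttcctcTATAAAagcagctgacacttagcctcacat
S100a9, chr3:90695722-90695971, minus strand: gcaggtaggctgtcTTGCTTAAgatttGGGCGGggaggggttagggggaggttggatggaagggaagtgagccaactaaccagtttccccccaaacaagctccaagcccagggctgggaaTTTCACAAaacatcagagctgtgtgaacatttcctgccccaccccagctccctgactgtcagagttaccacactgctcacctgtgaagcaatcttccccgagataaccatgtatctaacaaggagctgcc
S100a4, chr3:90603520-90603769, plus strand: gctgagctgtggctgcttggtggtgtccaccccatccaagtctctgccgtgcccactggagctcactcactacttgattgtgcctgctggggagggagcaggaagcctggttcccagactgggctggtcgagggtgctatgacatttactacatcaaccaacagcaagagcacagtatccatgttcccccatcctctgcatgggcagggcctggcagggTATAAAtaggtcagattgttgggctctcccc
S100a11, chr3:93520246-93520495, plus strand: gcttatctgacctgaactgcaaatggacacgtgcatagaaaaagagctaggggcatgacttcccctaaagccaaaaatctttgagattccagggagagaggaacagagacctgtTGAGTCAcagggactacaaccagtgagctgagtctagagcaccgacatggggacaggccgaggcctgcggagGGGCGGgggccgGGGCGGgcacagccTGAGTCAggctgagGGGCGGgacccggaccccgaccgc
The TATA box match began 30 bases before the start in S100a8 and 31 bases before it in S100a4. S100a9 held 2 matches to the C/EBP core and 1 to the GC box. S100a11 held 3 GC box and 2 AP-1 matches. The starts of S100a1 and S100a13 point away from each other with 104 bases between them, and these bases are shown because both genes can be read from them.
S100a1 and S100a13, chr3:90514331-90514434, plus strand, S100a13 reading to the right: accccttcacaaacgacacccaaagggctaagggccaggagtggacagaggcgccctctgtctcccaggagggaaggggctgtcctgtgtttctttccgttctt
None of the 4 motifs matched in these 104 bases. A match or its absence describes only letters in the window.

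Between tumours, 7 of the 9 measured members differed, S100a1, S100a3, S100a4, S100a6, S100a8, S100a9 and S100a10. That is 77.8% of the measured members, where 18.3% of all genes passed the same threshold, an adjusted p under 0.05 in the moderated F-test of limma. At an adjusted p under 0.01, 6 members were called, against 9.35% of all genes. The median SD over tumours was 1.47 for the 9 members and 0.386 for all genes. The members were chosen with earlier results of these data known, so these figures only describe them. Outside the members, S100a5 and S100a16 were not called (limma adjusted p = 0.751 and 0.210), while S100b and S100g were. The F-test sets the tumours' values against the scatter between arrays of 1 tumour, known only from T172 and T284. S100a11 (adjusted p = 0.118) and S100a13 (adjusted p = 0.0553) were not called by limma. S100a3, S100a4, S100a6, S100a8 and S100a9, which is 5 of the 9, shared T172, T284 and T920 as their 3 lowest tumours. The share of all genes with these 3 lowest was not computed.

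**Figure D1:**
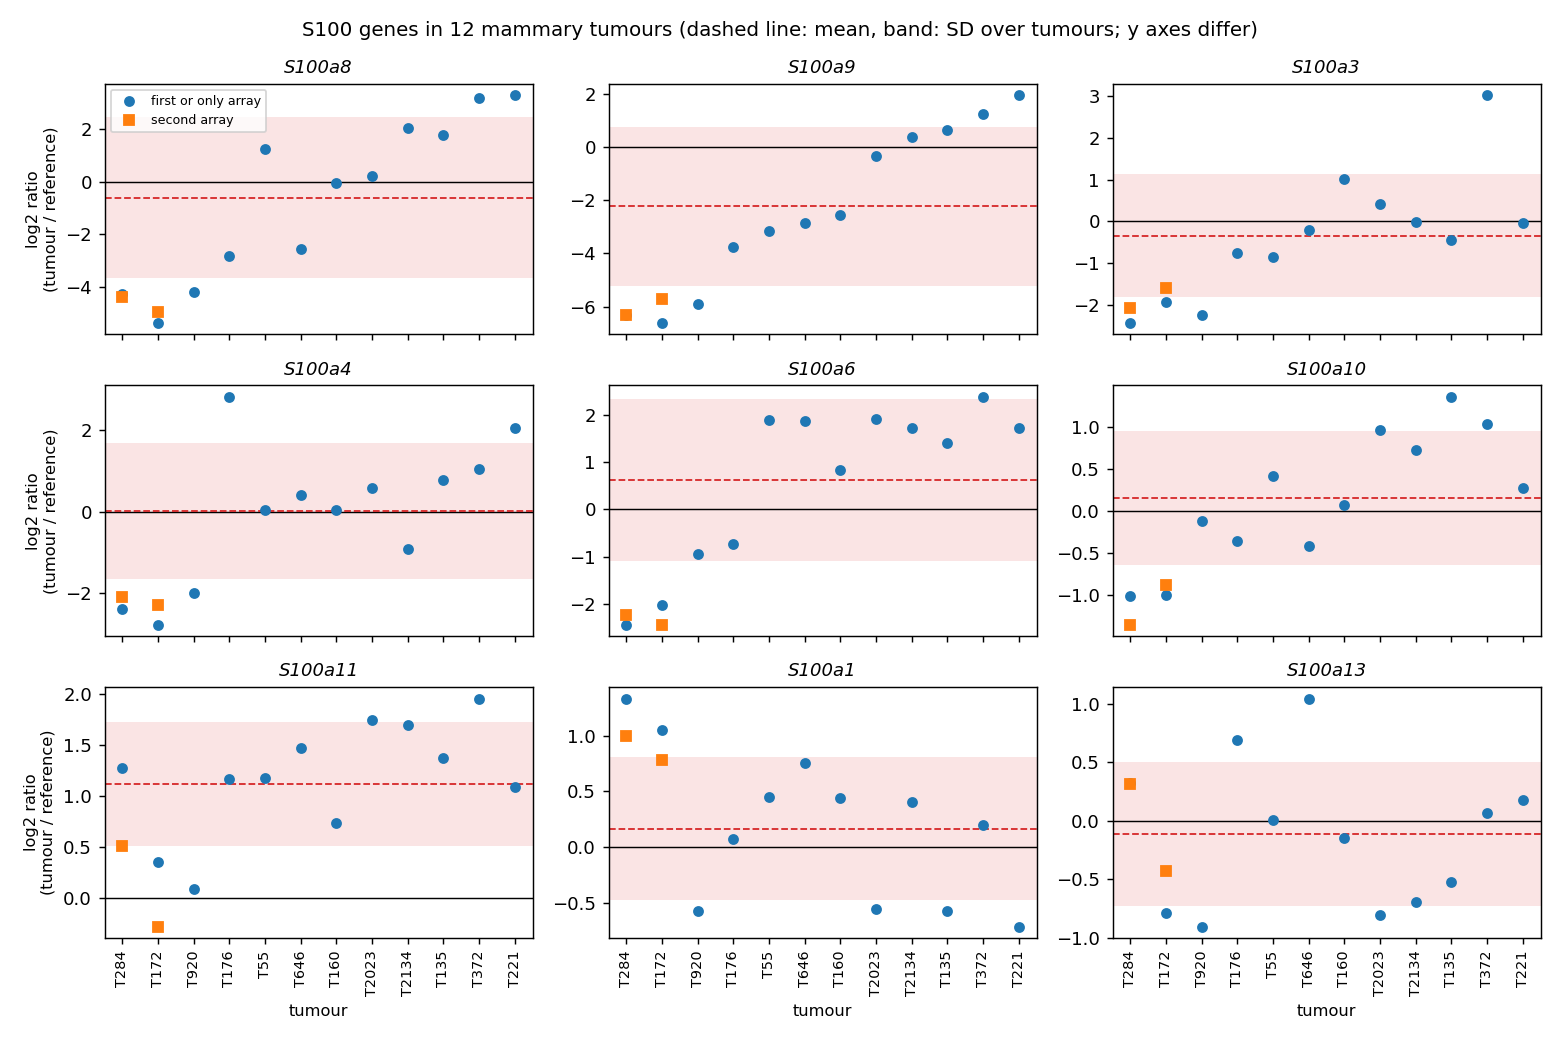
Log2 ratio of tumour over reference (y axis, a different range in each panel) of the 9 measured S100 genes in 12 tumours, ordered by S100a9. Circles are the first or only array and squares the second array of T172 and T284, the dashed line is the mean and the band the SD over tumours (n = 12). The T172, T284 and T920 points are lowest for S100a8, S100a9, S100a3, S100a4 and S100a6, and S100a1 is highest in T284 (1.16) and T172 (0.91).

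The calprotectin genes had the widest range of the members. S100a8 stood at -5.38 and -4.97 on the arrays of T172, at -4.30 and -4.39 on those of T284 and at -4.19 in T920. T176 and T646 followed at -2.83 and -2.55, T160 and T2023 at -0.05 and 0.23, T55, T135 and T2134 at 1.27, 1.78 and 2.06, and T372 and T221 at 3.20 and 3.31. The tumours thus spread over 8.49 log2 units, a 359-fold range, and 6 of 12 lay above the reference. S100a8 averaged -0.61 ± 3.07 (SD, n = 12), and its moderated SD within a tumour was 0.295 (limma adjusted p = 3.49e-05). Its SD over tumours was larger than that of 99.96% of genes. Neighbours in the order of tumours were said to differ when their gap exceeded the least difference that the within-tumour SD allows, 0.94 for S100a8. This held between T920 and T176, T646 and T160, T2023 and T55, and T2134 and T372, and the other neighbours did not differ beyond it. The limit is for 1 array per tumour, and with the means over 2 arrays taken into account it was 0.664 between T172 and T284, which their gap of 0.83 exceeded.

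S100a9 stood at -6.61 and -5.71 on the arrays of T172, at -6.32 and -6.30 on those of T284 and at -5.91 in T920. A middle set of T176, T55, T646 and T160 lay at -3.74, -3.14, -2.86 and -2.54. T2023, T2134, T135, T372 and T221 lay at -0.34, 0.38, 0.64, 1.24 and 1.95. The gaps between these 3 sets, 2.17 and 2.20, exceeded the least difference of 1.11, and no gap within a set did. The mean was -2.23 ± 2.97 (SD, n = 12), with a range of 8.25 log2 units (limma adjusted p = 5.92e-05).

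S100a8 and S100a9, whose proteins pair, varied together over the 12 tumours (Pearson's r = 0.937, permutation p = 9.00e-05; Spearman's rho = 0.944, permutation p = 4.00e-05). After adjustment over 14 relations these were 0.000525 and 0.00035, two-sided with 100000 resamples. Without T172 and T284, the tumours farthest from the median of S100a8, r was 0.899 (permutation p = 0.00039), and without T172, T284 and T920 it was 0.841 over 9 tumours (permutation p = 0.00466). T55 stood apart from this relation. Its S100a8 value exceeded its S100a9 value by 4.41 log2 units, whereas this gap was 0.31 to 2.49 in the other tumours and 1.63 ± 1.08 on average (SD, n = 12). Leaving out T55 gave r = 0.978. The gap compares each gene with its own reference signal and sets no amount of one gene against the other, and T55 had only 1 array.

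**Figure D2:**
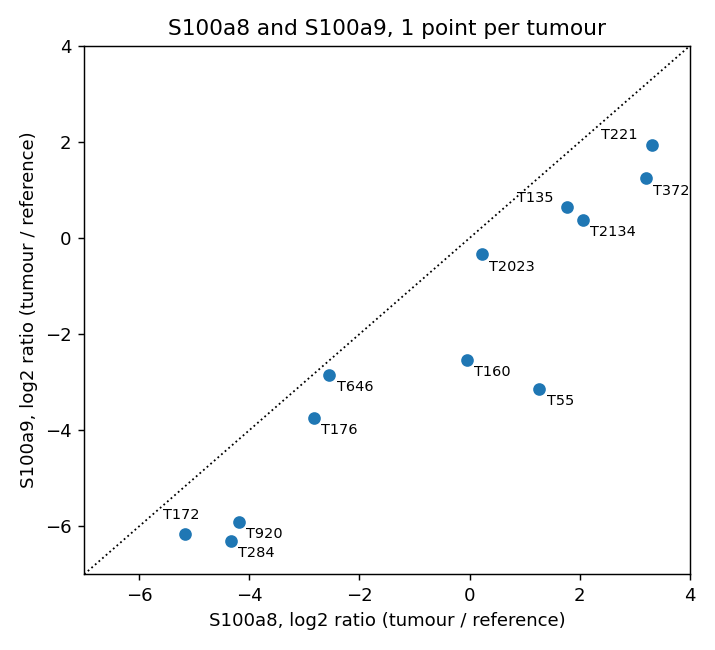
S100a8 (x axis) against S100a9 (y axis), both as log2 ratio of tumour over reference, 1 labelled point per tumour, with the arrays of T172 and T284 averaged. The dotted line marks equal ratios. Points rise together (r = 0.937), and T55 lies 4.41 units below the line, farther than any other tumour.

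S100a8 and S100a9 varied with the squamous markers. The squamous list had 14 of 15 measured genes called, where 18.3% of all genes were. Its score, the mean of each gene's log2 ratio minus its mean over tumours, ran from -1.94 in T172 to 2.57 in T221. It correlated with S100a8 at r = 0.837 (rho = 0.860, adjusted permutation p = 0.00302 and 0.00208) and with S100a9 at r = 0.912 (rho = 0.916, adjusted permutation p = 0.000525 and 0.00035). Without the 2 tumours farthest from the median of the gene, r was 0.767 for S100a8 and 0.872 for S100a9. These tumours were T172 and T284 for S100a8, but T221 and T372 for S100a9. Without T172, T284 and T920 it was 0.681 for S100a8 (adjusted permutation p = 0.108, n = 9) and 0.841 for S100a9 (adjusted permutation p = 0.0404, n = 9). The called squamous genes with the largest SD were Sprr2d, which encodes a cornified envelope precursor, the protease gene Klk7, Krtdap and the stress keratin gene Krt16. Sprr2d stood at -3.32 in T172, -3.16 in T284 and -3.32 in T920, against 3.81 in T2023, 3.85 in T135 and 4.20 in T372. The 3 genes most like S100a9 among 16609 genes were Cstdc4 (r = 0.973), Sprr2a1 (r = 0.947) and Krtdap (r = 0.945), and those most like S100a8 were Hsd17b2 (r = 0.945), Endou (r = 0.937) and Sdr16c6 (r = 0.933), each over 12 tumours.

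The neutrophil marker score was related to both genes, though its members ran in different ways. The list had 4 of 11 measured genes called, where 18.3% of all genes were. Its score ran from -0.94 in T284 to 0.68 in T2134. It correlated with S100a8 at r = 0.893 (rho = 0.846, adjusted permutation p = 0.000525 and 0.00208) and with S100a9 at r = 0.845 (rho = 0.783, adjusted permutation p = 0.00184 and 0.00748). Without T172 and T284 r was 0.828 for S100a8, and without T221 and T372 it was 0.873 for S100a9. Without T172, T284 and T920 r was 0.771 and 0.628, with S100a9 no longer called (adjusted permutation p = 0.148, n = 9). The called genes were Ltf, Mmp9, Lcn2 and Csf3r. Lcn2 was high where S100a8 was lowest, at 4.48 in T172, 4.04 in T284 and 4.95 in T920. It was also high in T2134 at 4.51 and in T372 at 4.32. Mmp9 was highest in T176 at 4.36 and lowest in T920, T172 and T284, at -3.41, -3.34 and -3.13. Mmp8, which was not called, ranged from -2.70 in T172 to 0.79 in T2134. Ltf and Lcn2 are also made by mammary epithelium, and without them r was 0.711 for S100a8 and 0.765 for S100a9 (adjusted permutation p = 0.0199 and 0.00902). By rank the relation was weaker without these 2 genes, with a rho of 0.643 for S100a8 and 0.608 for S100a9. The granule genes Ngp, Camp, Mpo and Elane lay below the reference in every tumour, with means of -3.30, -4.51, -3.51 and -0.48, and were not called. Ngp was lowest in T920, T284 and T172, at -4.09, -3.86 and -3.60, whereas Elane was highest in T920 at -0.08. Camp was lowest in T172 and T284, at -5.30 and -5.27, and highest in T372 at -3.82. Cxcr2 and Itgam lay above the reference in 9 tumours each, Ltf in 8 and Lcn2 in 11. Csf3r, the receptor of the neutrophil growth factor, stood at -0.54 in T172, -1.12 in T284 and -0.31 in T920 and was highest in T646 at 1.79, a tumour with S100a8 at -2.55. The share of squamous cells and of neutrophils in the calprotectin signal was not tested.

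S100a3, known in the hair cuticle, where the enzyme Padi3 modifies it in human, was highest in T372. It stood at 3.02 there, at 1.0 in T160 and 0.42 in T2023, and at or below 0 in the other 9 tumours, down to -2.25 in T284. T372 lay above the next tumour by 2.02, more than the least difference of 0.95, and no other gap exceeded it. For T172, a mean of 2 arrays, against T55 the limit was 0.825, which their gap of 0.91 exceeded. The mean was -0.34 ± 1.47 (SD, n = 12; limma adjusted p = 0.000525), and S100a3 was called without T372 as well (adjusted p = 0.00241). The hair marker list had 10 of 12 measured genes called, where 18.3% of all genes were. Its score ran from -1.39 in T284 to 3.46 in T372 and correlated with S100a3 at r = 0.925 (rho = 0.853, adjusted permutation p = 0.000525 and 0.00208). Without T284 and T372 r was 0.811 (permutation p = 0.00473), and without T172, T284 and T920 it was 0.909 over 9 tumours. Over these 9 tumours, which include T372, rho was 0.65. The hair genes with the largest SD were Krt28, Krt27, Krt25 and Padi3, and Padi3 stood at 5.01 in T372 and 3.14 in T221. The genes most like S100a3 were the hair keratin gene Krt32 (r = 0.956), the keratin-associated gene Krtap9-3 (r = 0.919) and Gfi1b (r = 0.914).

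S100a4, whose protein binds the heavy chain of non-muscle myosin, was highest in T176. It stood at 2.82 in T176 and 2.06 in T221, between -0.91 and 1.04 in 7 tumours, and at -2.78 and -2.31 on the arrays of T172, -2.38 and -2.11 on those of T284 and -2.01 in T920. The 3 lowest tumours were separated from T2134 by 1.10, and T221 from T372 by 1.02, with a least difference of 0.97. The mean was 0.0058 ± 1.67 (SD, n = 12), and the call held without T176 (limma adjusted p = 0.000231 with all tumours and 0.000526 without T176). S100a4 varied with the mesenchymal markers at r = 0.820 (rho = 0.853, adjusted permutation p = 0.00184 and 0.00208). This r was 0.740 without T172 and T176, and 0.865 without T172, T284 and T920 (n = 9). That list had 14 of 15 genes called, where 18.3% of all genes were, and its score ran from -1.24 in T2134 to 2.32 in T176. Its called genes with the largest SD were Snai2, Cdh11, Col1a2 and Fap. With Myh9, the myosin partner, S100a4 was not called as related (r = 0.510, rho = 0.434, adjusted permutation p = 0.114 and 0.208). The genes most like it were Cpa6 (r = 0.934), Map7d1 (r = 0.931) and Fhl2 (r = 0.929).

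S100a6, or calcyclin, separated 4 tumours from 8. It stood at -2.03 and -2.44 on the arrays of T172, at -2.45 and -2.24 on those of T284, at -0.94 in T920 and at -0.72 in T176. The other 8 tumours lay between 0.84 in T160 and 2.39 in T372. The gap between T176 and T160, 1.57, exceeded the least difference of 0.95, as did that between T172 and T920, 1.30. The mean was 0.63 ± 1.71 (SD, n = 12; limma adjusted p = 0.000145). S100a6 was not called as related to the mesenchymal score (r = 0.209, rho = 0.441, adjusted permutation p = 0.560 and 0.208). That r was 0.538 without T176 (adjusted permutation p = 0.0985), -0.16 without T172 and T284, -0.51 without T172, T284 and T920, and -0.0072 after quantile normalization, so its sign was not settled. With Cacybp, which encodes the calcyclin-binding protein, r was 0.632 (adjusted permutation p = 0.0470) and rho 0.375 (adjusted permutation p = 0.249). This r was 0.408 without T172 and T284 (permutation p = 0.228), the call was lost in 10 of 12 cases when a single tumour was left out, and r was 0.840 without T646. Wnt11 (r = 0.932), Arid3a (r = 0.931) and Adam8 (r = 0.928) were most like S100a6.

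S100a10 and S100a11 varied less than S100a3, S100a4, S100a6, S100a8 and S100a9. S100a10, which binds annexin A2 without needing calcium, ranged from -1.18 in T284 to 1.36 in T135 with a median of 0.17, and was low on both arrays of T172 (-1.0 and -0.88) and of T284 (-1.01 and -1.35). Its mean was 0.15 ± 0.79 (SD, n = 12; limma adjusted p = 0.00825), and no neighbours in the order of tumours differed beyond the least difference of 0.92. Anxa2 varied with it at r = 0.769 (rho = 0.678, adjusted permutation p = 0.0052 and 0.0323), and at 0.732 without T135 and T284. Without T172, T284 and T920 that relation was no longer called (r = 0.585, adjusted permutation p = 0.181, n = 9). Selenoi (r = 0.932), Unc45a (r = 0.924) and Nadk (r = 0.920) were most like S100a10. Of the 27 genes named as most like a member, 11 did not pass the F-test between tumours, which were these 3, Pla2g6, Hmx1, Gfi1b, Cpa6, Map7d1, Tet3, Necab2 and Lrpap1. All 27 were picked for the highest r among 16609 genes over 12 tumours, and these r were not tested.

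S100a11, which binds annexin A1, lay above the reference in all 12 tumours when arrays were averaged, from 0.04 in T172 and 0.09 in T920 to 1.96 in T372, with a mean of 1.12 ± 0.61 (SD, n = 12). On single arrays T172 stood at 0.35 and -0.28 and T284 at 1.28 and 0.51. These differences between arrays of 1 tumour, -0.63 and -0.77 for second minus first, were as large as the median gap of 0.60 between tumours. Both second arrays lay lower, and over 16535 genes the second minus first differences of T172 and T284 correlated at 0.325, a value across genes, which are not independent replicates. With Anxa1 r was 0.587 (rho = 0.462, adjusted permutation p = 0.0644 and 0.208), and 0.252 without T172 and T920. It was called without T176 (r = 0.668, adjusted permutation p = 0.0380), and was 0.078 without T172, T284 and T920. Anxa2 was the gene most like S100a11 (r = 0.877), followed by Tet3 (r = 0.870) and Necab2 (r = 0.869).

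S100a1, a calcium sensor of heart and skeletal muscle, varied over a narrower range. It was highest in T284 (1.33 and 0.99 on its arrays) and T172 (1.05 and 0.78), followed by T646 at 0.75. It was lowest in T221 at -0.71, with T920, T135 and T2023 between -0.57 and -0.56. The range of 1.87 log2 units was a 3.67-fold difference, and the mean was 0.17 ± 0.64 (SD, n = 12; limma adjusted p = 0.0334). The call was lost without T284 (adjusted p = 0.0675) and without the first array of T284 (adjusted p = 0.0541). S100a1 was not called as related to the skeletal muscle markers (r = 0.109, rho = 0.126, adjusted permutation p = 0.779 and 0.698), whose score was highest in T55 at 1.77, where S100a1 stood at 0.45. That list had 5 of 13 genes called, where 18.3% of all genes were, and Myh4, Pvalb, Actn3 and Myh2 led it in SD. Alg9 (r = 0.953), Pla2g6 (r = 0.932) and Hmx1 (r = 0.930) were most like S100a1.

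S100a13, which takes part in the release of the growth factor FGF1 without a signal peptide, was highest in T646 at 1.05 and T176 at 0.69 and lowest in T920 at -0.91. The mean was -0.12 ± 0.62 (SD, n = 12). Its adjusted p of 0.0553 by limma lay near the threshold and passed it after quantile normalization (adjusted p = 0.0328). S100a13 and S100a1, whose starts flank the shared 104 bases, lay on the same side of the reference in 8 tumours and on opposite sides in 4. With Fgf1 r was -0.463 (rho = -0.399, adjusted permutation p = 0.151 and 0.235), and -0.230 without T646 and T920. Golt1b (r = 0.895), Klf2 (r = 0.873) and Lrpap1 (r = 0.873) were most like S100a13.

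Set against the mean of the other 11 tumours, no member was called in any tumour. This was 0 of 108 combinations of member and tumour by limma's moderated test, where 0.395% of all gene and tumour combinations were called, from 0.00593% of genes in T160 to 3.83% in T176. At an unadjusted p under 0.05, 6 of 108 combinations passed, or 5.56%, against 5.65% over all genes. Largest in size was S100a8 in T172, at -5.18 against a mean of -0.19 in the other 11 (difference -4.98 ± 2.63, SE; limma adjusted p = 0.997). The smallest unadjusted p was that of S100a3 in T372, at 3.02 against -0.65 in the other 11 (difference 3.67 ± 0.999, SE; limma adjusted p = 0.667). A lone tumour is here set against the spread among the other 11, and the low values of S100a8 and S100a9 were shared by 3 tumours.

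**Figure D3:**
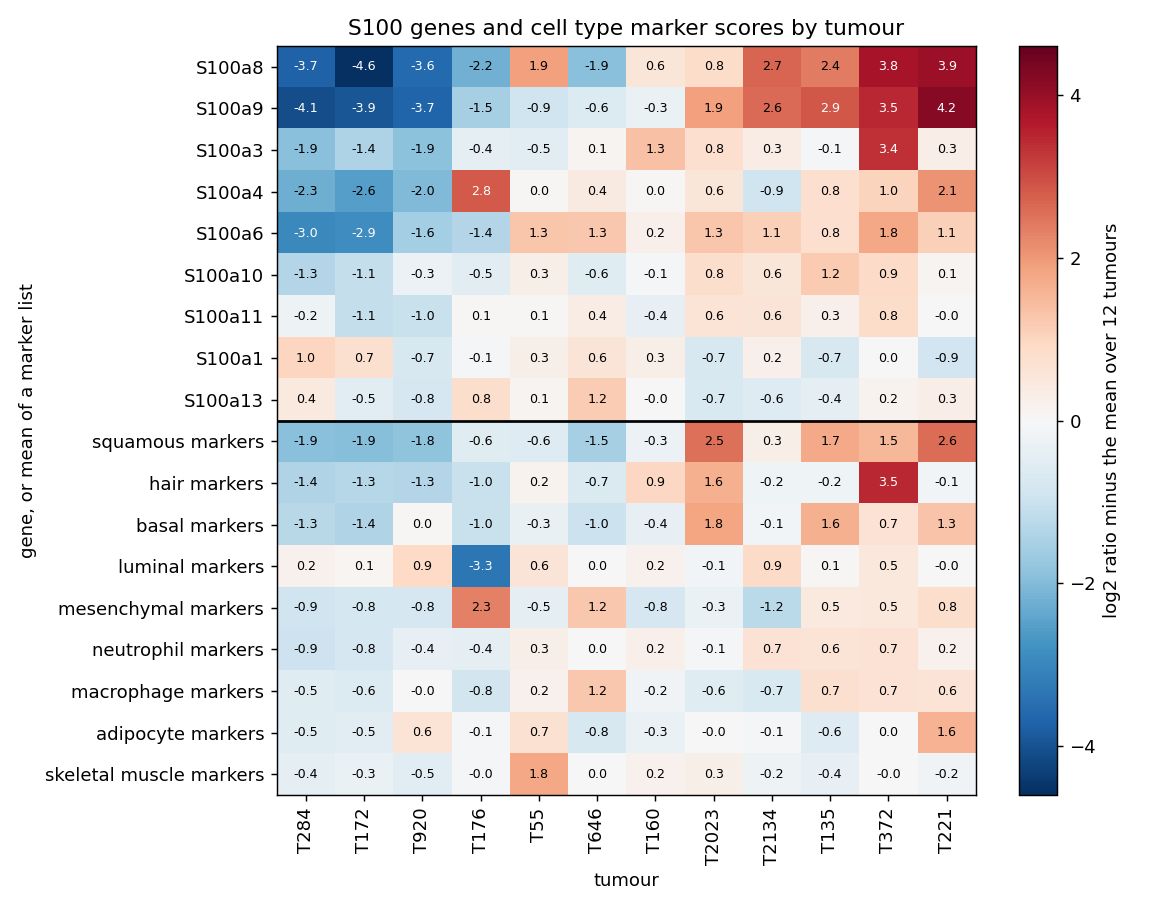
The 9 S100 genes (above the line) and the mean of each cell type marker list (below it) in 12 tumours, as log2 ratio minus the mean over tumours, ordered by S100a9. Red is above and blue below the mean of the row. S100a8 and S100a9 share their blue and red ends with the squamous markers (-1.94 in T172, 2.57 in T221), S100a3 its highest tumour with the hair markers (3.46 in T372) and S100a4 its highest tumour with the mesenchymal markers (2.32 in T176).

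Markers of other cells also differed between tumours, not all in the tumours where S100 genes were extreme. Beside the counts for these lists, 18.3% of all genes were called. The basal list had 10 of 12 genes called, with scores of -1.37 in T172, -1.26 in T284 and 0.04 in T920, against 1.83 in T2023. Trp63, Id4, Krt14 and Krt5 led it in SD, and in T920 these ran in different ways. Trp63 at 1.89 and Id4 at -0.65 lay above their means over tumours, 0.0045 and -1.28. Krt14 at -1.44 and Krt5 at -2.90 lay below theirs, 0.34 and -1.11. Of 13 luminal genes 10 were called, and T172, T284 and T920 scored 0.10, 0.20 and 0.91, against -3.33 in T176. Krt19, Elf5, Krt18 and Epcam led the luminal list. Macrophage markers had 9 of 12 called, with scores from -0.84 in T176 to 1.24 in T646. The largest SD was in Cd163, Lyz2, Ctss and Mrc1. In T176 the called macrophage genes ran in different ways. Cd68 and Tyrobp were highest there, whereas Lyz2, Ctss, Cd14, C1qa and Aif1 were lowest there. Adipocyte markers had 6 of 9 called, and their score was highest in T221 at 1.61. Cd36, Cidec, Slc2a4 and Plin1 led this list in SD. Of these, Cidec and Plin1 were highest in T221, Cd36 in T55 and Slc2a4 in T176. The part of these marker lists in the S100 results was not tested.

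Among relatives of the family outside the 10 members, 8 of 13 listed genes were measured and 5 differed between tumours, where 18.3% of all genes did. S100b, which encodes a calcium sensor of glia that can pair with S100a1, had its highest values in T284 (3.20) and T172 (1.92), where S100a1 also peaked, and its lowest in T176 (-1.84; limma adjusted p = 0.000191). Both S100b probes put T284 first, at 3.04 and 3.36, and T172 next, at 1.84 and 2.01. T646, which came next for S100a1 at 0.75, had S100b at -1.39. A relation between S100b and S100a1 was not tested. S100g, a vitamin D dependent calcium buffer also named calbindin-D9k, lay between -5.15 in T284 and -2.11 in T55. The fused-type relatives Flg, Hrnr and Rptn, which carry an S100-like domain before the repeats of cornified cells, were lowest in T920, T284 and T920, at -5.21, -4.82 and -2.72. Their highest values were 1.47 in T2023, 0.99 in T221 and 6.08 in T221. S100a16, S100a5 and Tchhl1 were not called.

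Some partner and receptor genes differed between tumours. Of 11 measured partner genes 4 were called, Anxa1, Anxa2, Ahnak and Padi3, and of 9 receptor and co-receptor genes 3, Cd36, Bsg and Cd14, where 18.3% of all genes were called. Ahnak, which encodes a scaffold bound by the S100a10 and annexin A2 complex, ranged from -1.55 in T284 to 0.82 in T135. The calprotectin receptor genes Tlr4 and Ager were not called, with ranges of 0.13 to 2.18 and of -1.34 to 0.26. Bsg, encoding basigin, ranged from -1.09 in T55 to 1.43 in T176. Anxa6, Cacybp, Sugt1, Myh9, Fgf1, Syt1, Ppp5c, Cd33, Cd69, Ly96 and Myd88 were not called either.

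Along the chromosome the members lay at both ends of the epidermal differentiation cluster. From S100a1 to S100a10 the RefSeq table lists 70 protein-coding genes, of which 45 were measured. Of the 36 measured genes that are no members, 27 were called, or 75.0%, where 18.3% of all genes were called. Their median SD was 1.67, where that of all genes was 0.386. Of the 36, 31 were lowest in T172, T284 or T920, and the share of all genes lowest in these tumours was not computed. The order was not uniform. S100a5, which lies between S100a4 and S100a6, had an SD of 0.295 over tumours, while its neighbours had 1.67 and 1.71, and S100a16 had 0.553. Lor, the first measured gene beyond S100a9, ranged from -7.06 in T920 to -0.48 in T2023. Tchhl1, next to S100a11, had an SD of 0.582, and S100a11 and S100a10 had 0.607 and 0.793. Genes of the Sprr2 and Lce1 families are near copies of each other, so that their probes may not tell them apart.

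**Figure D4:**
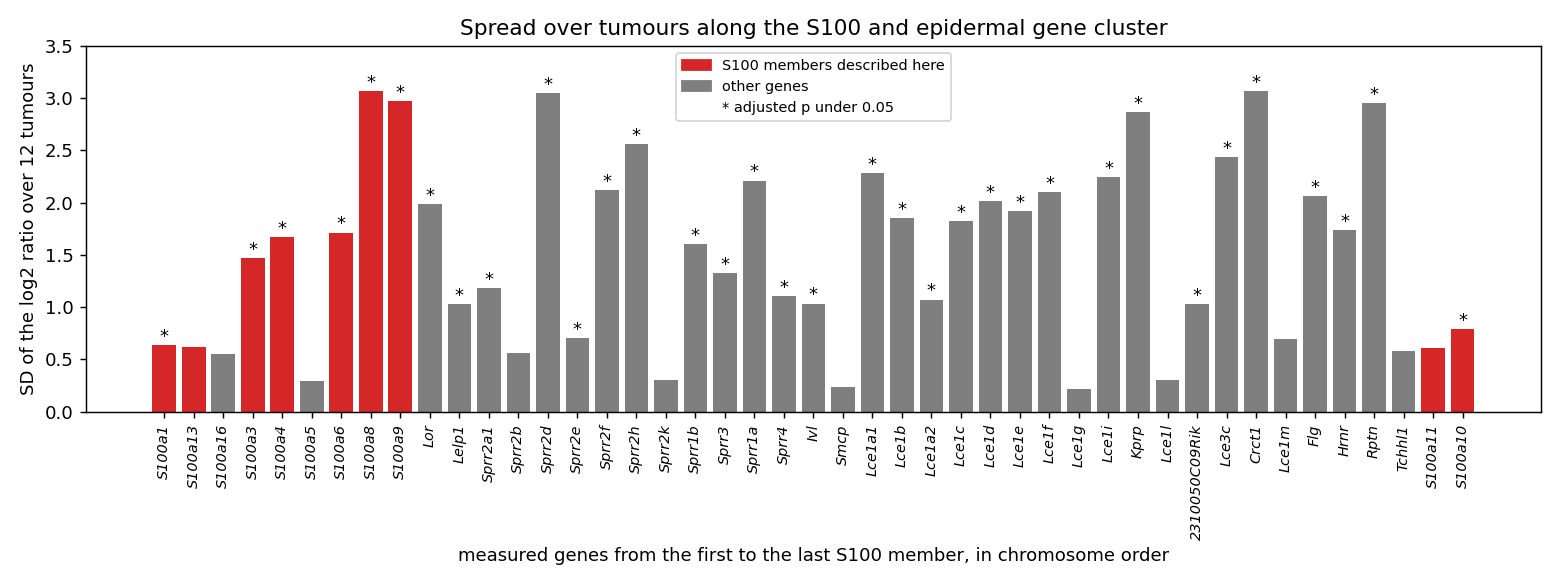
SD of the log2 ratio over 12 tumours (y axis) of the 45 measured genes from S100a1 to S100a10, in chromosome order on an axis without distances. Red bars are the S100 members and grey bars the other genes, and a star marks an adjusted p under 0.05 in limma's F-test. S100a8 and S100a9 have an SD of 3.07 and 2.97, and S100a5, between S100a4 and S100a6, has 0.295.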

How the data were processed

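RNA of 12 Brg1+/- mouse mammary tumours was measured on 14 two-colour arrays. The deposited values are log2 ratios made by the authors. Cy5 held the tumour and Cy3 the mouse reference RNA per the labels, so the ratio is tumour over reference. Base 2 was inferred from the values, which ran from -9.19 to 7.42 with array medians of 0 to 0.018. How the authors scanned, filtered and normalized the arrays is not given in the sources used here. Between 22501 and 22566 of 22575 probes had a value on each array, and 0.172% of values were missing. The number of arrays limits the precision, and spot intensities were not used here.

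Probes were named by the platform annotation, with symbols updated through RefSeq, where 18445 matched by Entrez identifier, 24 by accession and 189 kept the annotated symbol. Of all probes 18658 had 1 symbol, 30 several and 3887 none, and only the first kind was used. Probes of a gene were averaged, and 16877 genes with values on at least 12 arrays were tested.

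A moderated F-test over all genes (limma 3.58.1, R 4.3.3) compared the tumours, with Benjamini-Hochberg adjustment and a call at an adjusted p under 0.05. The prior SD was 0.313, on 7.22 degrees of freedom. Each tumour was also set against the mean of the other 11, with the arrays of T172 and T284 averaged first. Relations over tumours used two-sided permutation tests with 100000 resamples, adjusted over 14 relations (Python 3.11.15, numpy 2.4.6, pandas 2.3.3, scipy 1.17.1). Both fits were tested on simulated data. Promoters and gene order came from RefSeq tables of GRCm38.p6.

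Named genes were all members, the measured relatives, partners and receptors, up to 4 called genes of largest SD per marker list, the 3 genes most like each member, and measured chromosome neighbours. Lor and single neutrophil, macrophage and luminal genes were named after their values were seen. The members and lists were chosen with earlier results of these data known. Alternatives covered quantile normalization, 1 probe per gene, complete genes, a robust prior, the threshold, a block for second arrays, and left-out arrays and tumours. Leaving out T172, T284 and T920 together, and Ltf and Lcn2 from the neutrophil list, and a least difference by number of arrays, were chosen after seeing the data.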

Additional observations from a re-analysis of the deposited data

How the results depend on the processing

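Of the 9 measured members, 6 to 9 were called over 22 alternatives to the F-test, against 7 in the reported fit, and S100a3, S100a4, S100a6, S100a8, S100a9 and S100a10 passed an adjusted p under 0.05 in each. S100a11 was called without the first array of T172 (limma adjusted p = 0.0419) and with the replicate block (limma adjusted p = 0.00221). S100a13 was called in 10 alternatives. A replicate block for first against second arrays, which the labels do not describe as a pairing, called 9 members, 22 relatives, partners and receptors instead of 12, and 7124 genes instead of 3094. At an adjusted p under 0.01, 1578 genes were called. Leaving out single tumours gave 2509 to 3847 genes and single arrays 3199 to 4005. No member was called in 1 tumour against the rest under any of 17 alternatives, with 4 to 8 combinations at an unadjusted p under 0.05. The r of S100a6 with Cacybp was 0.540 after quantile normalization, 0.506 with second arrays only, 0.408 without the 2 farthest tumours and 0.466 without T172, T284 and T920. It ranged from 0.538 to 0.840, highest without T646, when single tumours were left out, and 10 of these 12 values were not called. The r of S100a11 with Anxa1 passed the threshold with second arrays only (0.665) and without T176 (0.668), and was 0.394 to 0.668 with single tumours left out and 0.078 without T172, T284 and T920. The r of S100a6 with the mesenchymal score ran from -0.51 to 0.538 and was not called under any of 18 alternatives. Without T172, T284 and T920, r lost its call for S100a10 with Anxa2 (0.585), S100a8 with squamous markers (0.681) and S100a9 with neutrophil markers (0.628). The cause was not tested. With limits set by the number of arrays, 13 instead of 11 neighbouring gaps exceeded the least difference. The spread within a tumour rests on 2 tumours with 2 arrays each, and 10 tumours had 1 array.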
